A study of Mus musculus with 3 samples.

Results

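Transcripts of 10 genes that carry costimulation in T cells were followed in splenic memory phenotype CD4 T cells of mice on a high fat diet (HFD) and on a normal diet (ND). The genes are Cd28, 5 receptors of the tumour necrosis factor (TNF) receptor family (Cd27, Tnfrsf4, Tnfrsf9, Tnfrsf14 and Tnfrsf25) and 4 ligands of the TNF family (Cd40lg, Tnfsf8, Tnfsf11 and Tnfsf14). They were taken by symbol from the platform's probe annotation, which gave 15 probe sets for these 10 genes, of 18193 named genes on the arrays. BALB/c mice received the diets for 10 weeks, the HFD supplying 60 kcal% from fat, and cells were sorted to a stated purity above 99%. The HFD group held 2 arrays (HFD 1 and HFD 2) and the ND group held 1, each giving 1 linear intensity per probe set. Nothing in the labels tells whether each HFD sample was a different animal, and p-values therefore cover no more than the spread of these arrays, which may be technical. The labels give neither the composition of the normal diet nor the age and sex of the mice.

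A T cell needs a signal through its antigen receptor and a further, costimulatory signal to divide and survive. CD28 gives that signal when it binds B7 proteins (CD80 and CD86) on an antigen-presenting cell, and it strengthens interleukin production. Receptors of the TNF family act alongside or after CD28: their cytoplasmic tails recruit TRAF adaptors, which feed the NF-kappaB pathway and raise survival proteins. Memory T cells also display TNF family ligands, through which they license B cells, dendritic cells and macrophages.

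The ND array stood apart from the HFD arrays over the whole transcriptome, which bears on every value below. Absolute log2 differences per gene had a median of 0.394 between HFD 1 and ND and 0.453 between HFD 2 and ND, against 0.126 between the HFD arrays. Over all genes tested, the median log2 difference of HFD minus ND was -0.15. H2-Ea, a class II histocompatibility gene that C57BL/6 mice lack and BALB/c mice express, read 536 on HFD 1 and 602 on HFD 2, against 11.5 on ND, while its partner chain H2-Eb1 read 1566 on HFD 1 and 1547 on HFD 2, against 2604 on ND. Of 8 probe sets of the class I gene H2-D1 that exceeded the filter on some array, 3 read 5720 to 7700 on the HFD arrays and 8.98 to 82.9 on ND. These histocompatibility genes were chosen after their values were seen. The ND sample therefore went against the strain label that all 3 samples share, and whether it came from another strain was not tested. Diet, a strain difference and any handling of the lone ND sample cannot be told apart, and "HFD" and "ND" below name the libraries as labelled.

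T cell markers were bright on all arrays: Cd3d read 19833 on HFD 1 and 19515 on HFD 2, against 22919 on ND. The summed intensity of 9 T cell markers was 73646 to 78310 in HFD, against 93728 in ND, and 8 of the 9 fell. Beside this and the marker counts that follow, 20.5% of all genes tested were called higher and 29.2% lower. The Cd3d call was lost with arrays centred (adjusted p = 0.2345), with no filter (adjusted p = 0.1674) and with no variance trend (adjusted p = 0.2263). Among 7 named B cell markers, 4 passed the filter and 2 rose (Ms4a1 and Fcer2a), while Cd79b (log2 -0.27) and Blnk (log2 -0.13, and 0.03 under quantile normalization) were not called, the summed intensity being 2681 to 3055 in HFD, against 697 in ND. Among 9 macrophage and monocyte markers, 6 passed the filter and 5 fell, the sum being 899 to 1079 in HFD, against 2441 in ND. Among 7 dendritic cell markers, 6 passed and 5 fell, the sum being 2399 to 2498 in HFD, against 4013 in ND. Of these marker genes, Cd79a (51.2 and 49.4 in HFD, against 5.74 in ND), Pax5 (27.0 and 6.86 in HFD, against 65.1 in ND) and Cd14 (7.58 and 24.3 in HFD, against 28.7 in ND) lay under the filter used below. So did Cr2, C1qa, C1qc and Xcr1. Among 6 neutrophil markers, 3 passed the filter and 2 rose (S100a8 and S100a9), Ngp was not called (log2 0.08, adjusted p = 0.867), and the sum was 605 to 657 in HFD, against 182 in ND. The risers Ms4a1, Fcer2a, S100a8 and S100a9 lay under the filter on ND and passed it through the HFD arrays. Conversely, Vcam1, C1qb and Flt3, among the myeloid markers that fell, had HFD means under the filter and passed it through ND. Cd4 itself fell, at 609 on HFD 1 and 377 on HFD 2, against 911 on ND, a call that was lost with no filter (adjusted p = 0.0903) and with no variance trend (adjusted p = 0.0780), and the log2 difference of -0.90 was -0.57 without HFD 2. Of both CD8 T cell markers, Cd8a rose (177 and 230 in HFD, against 99.0 in ND, adjusted p = 0.0122, or 0.137 with probe sets averaged and 0.103 with no filter), and Cd8b1 was not called (404 and 485 in HFD, against 350 in ND, adjusted p = 0.153). In a sorted population a change in the number of cells of a type and a change in RNA per cell cannot be told apart, and the part of these other cells in the results below was not tested.

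Genes were tested where the mean of the 3 arrays exceeded 71.4, the median of all probe sets, each gene by its brightest probe set, on the scale log2(intensity + 17.7). Of the 10 costimulatory genes, 8 passed this filter. Tnfrsf4 rose in HFD, Tnfrsf25, Cd27, Tnfsf14 and Tnfsf8 fell, and Cd28, Tnfrsf9 and Tnfsf11 did not pass the test (limma, Benjamini-Hochberg adjusted p under 0.05). The count of 1 higher and 4 lower stands beside 20.5% of all 10341 genes called higher and 29.2% called lower. Calls were thus common in this comparison, and a call of itself does not set a member apart. The median log2 difference of the 8 genes was -0.33, against -0.15 over all genes. Both HFD arrays lay below ND for 6 of the 8 genes and above it for 1, against 54.7% and 35.8% of all genes.

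**Figure D1:**
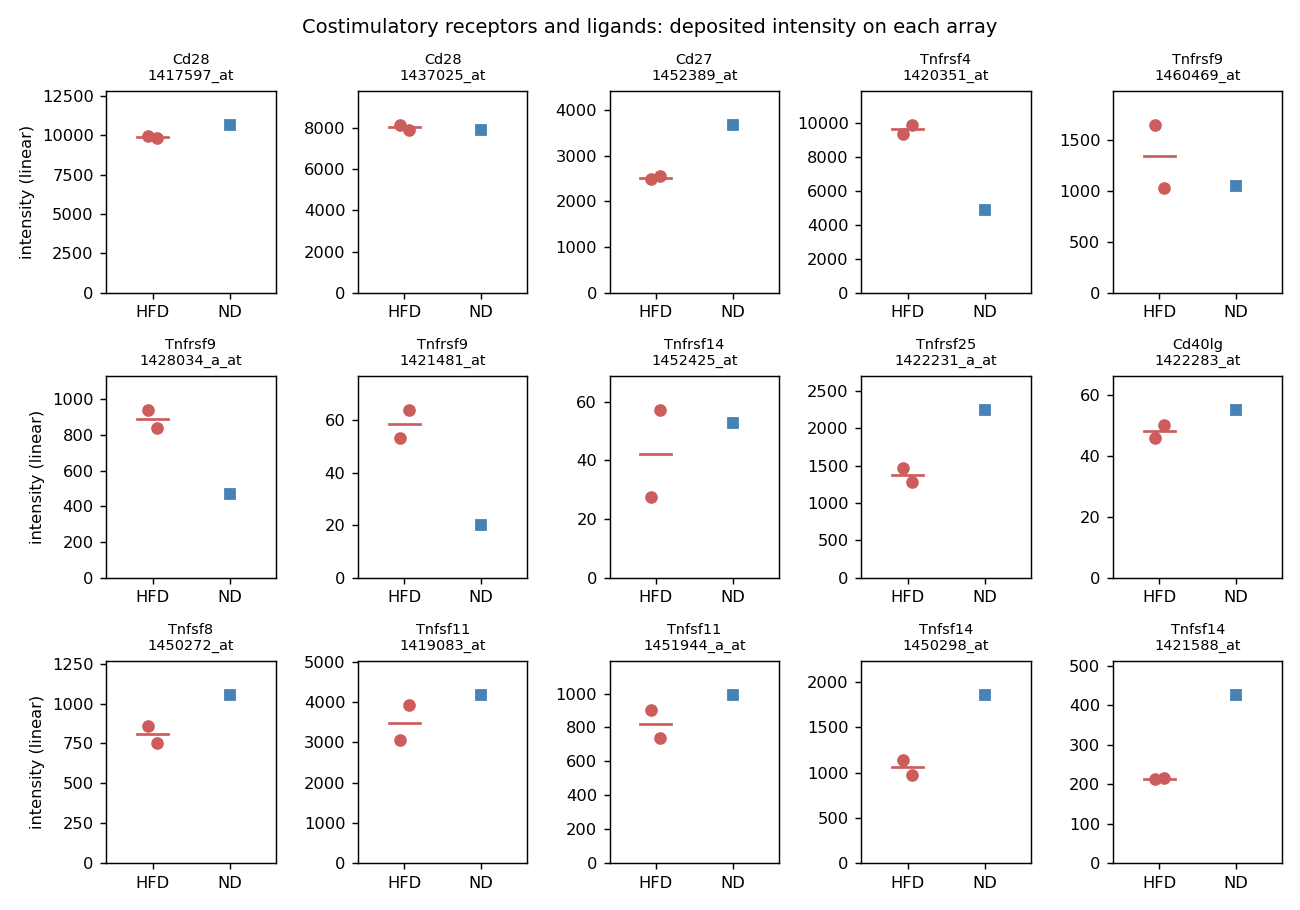
Deposited linear intensity (vertical axis of each panel, from 0) of the 15 probe sets on the HFD arrays (circles, with their mean as a line, n = 2) and the ND array (square, n = 1). Tnfrsf4 sits at 9354 and 9934 in HFD, above 4875 in ND, while Cd27, Tnfrsf25 and both Tnfsf14 probe sets sit below ND on each HFD array.

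Cd28, which encodes the receptor for CD80 and CD86, was bright and differed little. Its brighter probe set (1417597_at) read 9963 on HFD 1 and 9808 on HFD 2, against 10688 on ND. Both HFD arrays lay slightly below ND. The log2 difference was -0.11 ± 0.08 (SE; 95% interval -0.29 to 0.07, adjusted p = 0.281). The other probe set (1437025_at) read 8172 on HFD 1 and 7916 on HFD 2, against 7892 on ND, a log2 difference of 0.03 ± 0.09 (SE, adjusted p = 0.826), so the probe sets of Cd28 pointed to opposite sides of ND. Quantile normalization turned the brighter one into a call of lower (log2 -0.31, adjusted p = 0.0040).

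Tnfrsf4, which encodes OX40, a receptor induced after T cell activation and abundant on mouse regulatory T cells, was the member with the largest difference. It read 9354 on HFD 1 and 9934 on HFD 2, against 4875 on ND. The HFD arrays lay close together and both were far above ND. The mean in HFD was 9644 ± 410 (SD, n = 2), 1.97-fold the ND value (log2 0.98 ± 0.09 SE, adjusted p = 3.0e-06). That difference exceeded those of 92.9% of the genes tested. No member differed at least 2-fold from ND on each HFD array, a count of size for which no p-value is given: Tnfrsf4 reached a log2 difference of 1.02 on HFD 2 but 0.94 on HFD 1. Of all genes, 6.00% were at least 2-fold higher on each HFD array and 2.60% at least 2-fold lower.

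Tnfrsf9, which encodes 4-1BB, another receptor induced by activation, was read by 3 probe sets that differed in how far HFD lay from ND. The brightest (1460469_at) read 1654 on HFD 1 and 1026 on HFD 2, against 1050 on ND. The ND array lay between the HFD arrays there, and the log2 difference of 0.31 ± 0.21 (SE; 95% interval -0.15 to 0.76) did not pass the test (adjusted p = 0.246). It was 0.65 with HFD 1 alone and -0.03 with HFD 2 alone, so this probe set's direction rests on HFD 1. The next probe set (1428034_a_at) read 942 on HFD 1 and 840 on HFD 2, against 467 on ND. Both HFD arrays were well above ND, and this probe set was called higher when each probe set was tested on its own (log2 0.91 ± 0.16 SE, adjusted p = 0.00085). The dimmest (1421481_at) read 53.2 on HFD 1 and 63.9 on HFD 2, against 20.2 on ND, under the filter but on the same side. With the probe sets past the filter averaged, Tnfrsf9 was called higher (log2 0.61, adjusted p = 0.0268), as it was with arrays centred (adjusted p = 0.0238) and with the filter at the 75th percentile (adjusted p = 0.0319). The stricter filter left the log2 difference at 0.31, so that call was gained through the variance fit and the adjustment.

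Cd27, which encodes the receptor for CD70 and supports survival of primed T cells, fell. It read 2484 on HFD 1 and 2555 on HFD 2, against 3683 on ND. The HFD arrays nearly coincided below ND. The ND value was 1.46-fold the HFD mean of 2519 ± 50.3 (SD, n = 2), a log2 difference of -0.54 ± 0.11 (SE, adjusted p = 0.0014).

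Tnfrsf25, which encodes DR3, a receptor with a death domain that costimulates T cells when bound by TL1A, also fell. It read 1473 on HFD 1 and 1288 on HFD 2, against 2252 on ND. Both HFD arrays were below ND by more than they differed from each other. The ND value was 1.63-fold that of HFD (log2 -0.70 ± 0.13 SE, adjusted p = 0.00082). Tnfrsf14, which encodes HVEM, the receptor shared by LIGHT, BTLA and CD160, was dim on every array, at 27.4 on HFD 1 and 57.2 on HFD 2, against 52.6 on ND. The HFD arrays lay on both sides of ND, and without the filter its log2 difference was -0.27 ± 0.50 (SE, adjusted p = 0.793).

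**Figure D2:**
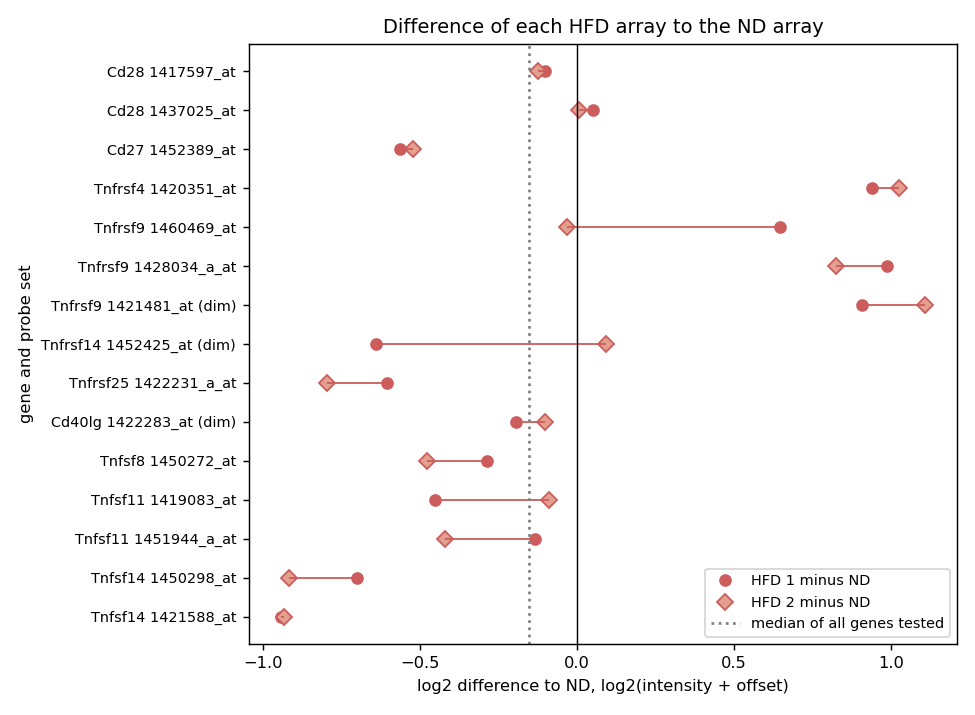
Log2 difference of HFD 1 (circles) and HFD 2 (diamonds) to the ND array for each of the 15 probe sets, in rows, with lines joining the HFD arrays and a dotted line at the median of all genes tested (-0.15). Tnfrsf4 lies at 0.94 and 1.02, the probe sets of Tnfrsf9 spread from -0.03 to 1.11, and the Tnfsf14 probe sets lie between -0.94 and -0.70.

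Tnfsf14, the ligand known as LIGHT, which binds HVEM and the lymphotoxin beta receptor, had the largest fall among the members. Its brighter probe set (1450298_at) read 1136 on HFD 1 and 976 on HFD 2, against 1860 on ND. The other (1421588_at) read 213 on HFD 1 and 215 on HFD 2, against 427 on ND. On each probe set both HFD arrays lay below ND. The ND value was 1.75-fold that of HFD on the brighter one (log2 -0.81 ± 0.14 SE, adjusted p = 0.00044) and 1.92-fold on the other (log2 -0.94 ± 0.20 SE, adjusted p = 0.0030 with each probe set tested on its own). Of all genes, 9.57% had a log2 difference at or below that of the brighter probe set.

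Tnfsf8, which encodes the ligand of CD30, read 861 on HFD 1 and 752 on HFD 2, against 1056 on ND. Both HFD arrays were below ND, by a little more than they differed from each other. The log2 difference of -0.38 ± 0.15 (SE; 95% interval -0.70 to -0.07) passed the test narrowly (adjusted p = 0.0451) and missed it under 6 other settings, with adjusted p-values of 0.0537 to 0.116. Tnfsf11, which encodes RANKL, the ligand that drives osteoclast formation and acts on dendritic cells, was lower in HFD on both of its probe sets without passing the test. The brighter (1419083_at) read 3055 on HFD 1 and 3928 on HFD 2, against 4185 on ND (log2 -0.27 ± 0.14 SE, 95% interval -0.57 to 0.02, adjusted p = 0.117). The other (1451944_a_at) read 903 on HFD 1 and 738 on HFD 2, against 993 on ND. HFD 1 was the lower HFD array on one probe set and HFD 2 on the other, so the arrays had no common order for this gene. Under quantile normalization Tnfsf11 was called lower (log2 -0.36, adjusted p = 0.0348), and likewise with the filter at the 75th percentile (adjusted p = 0.0410).

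Cd40lg, which encodes the ligand by which helper T cells activate B cells and dendritic cells through CD40, was dim throughout. Its single probe set read 45.8 on HFD 1 and 50.1 on HFD 2, against 55.0 on ND. These levels lay under the filter, and without it the log2 difference was -0.15 ± 0.41 (SE, adjusted p = 0.871). With no detection calls used here, the levels of Cd40lg and Tnfrsf14 could not be told from background.

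**Figure D3:**
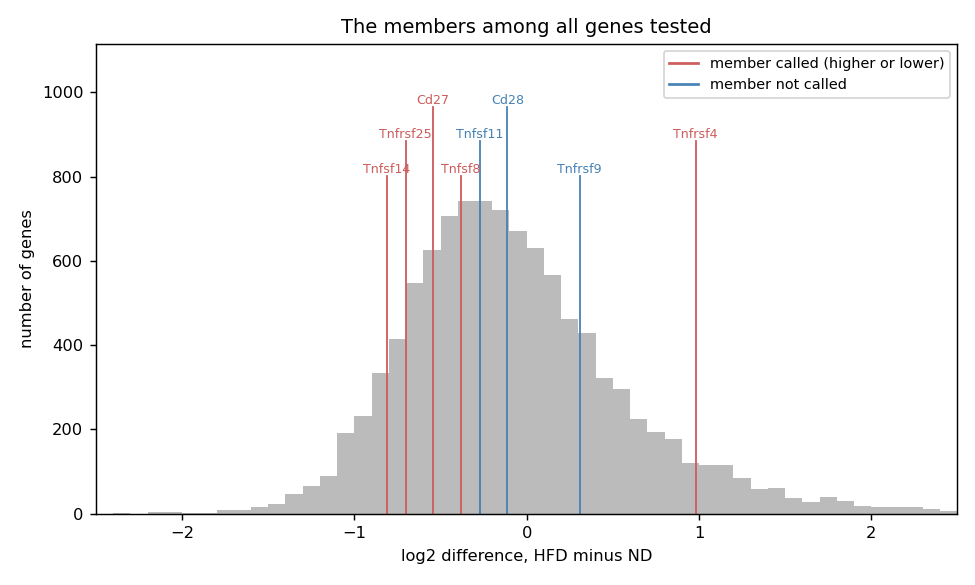
Number of genes (vertical axis) by log2 difference of HFD minus ND (horizontal axis) over the 10341 genes tested, with the 8 tested members as lines, red where called and blue where not. The axis ends at 2.5 on each side, beyond which 62 genes lie. Tnfrsf4 at 0.98 lies in the upper part of the distribution, while Cd28 at -0.11 and Tnfsf11 at -0.27 lie near its middle.

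When every probe set past the filter was tested on its own, 12 probe sets of the members entered. Of these 2 were called higher, those of Tnfrsf4 and the second of Tnfrsf9, and 4 were called lower, those of Cd27, Tnfrsf25 and Tnfsf14. Over all 22518 probe sets 17.0% were called higher and 24.4% lower. The Tnfsf8 probe set, called in the test by genes, missed the threshold there (adjusted p = 0.0673).

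The promoters of the member with the clearest rise (Tnfrsf4) and of both members whose windows held AP-1 letters (Tnfrsf9 and Tnfsf14) are shown to place the genes in the genome. RefSeq windows of build GRCm38.p6, which is C57BL/6J sequence, run from 250 bases before to 50 bases after a transcript start and were found for 8 members, 10 windows in all. The windows of 5 members (Tnfrsf4, Tnfrsf9, Tnfrsf14, Tnfrsf25 and Tnfsf8) lie on chromosome 4. Capitals mark matches to the AP-1 letters TGANTCA and to the kappaB consensus, searched on both strands. The Tnfrsf4 window (chr4:156013445-156013744, plus strand), the Tnfrsf9 window at its downstream start (chr4:150927749-150928048, plus strand) and the Tnfsf14 window (chr17:57194132-57194431, minus strand) read as follows.
Tnfrsf4: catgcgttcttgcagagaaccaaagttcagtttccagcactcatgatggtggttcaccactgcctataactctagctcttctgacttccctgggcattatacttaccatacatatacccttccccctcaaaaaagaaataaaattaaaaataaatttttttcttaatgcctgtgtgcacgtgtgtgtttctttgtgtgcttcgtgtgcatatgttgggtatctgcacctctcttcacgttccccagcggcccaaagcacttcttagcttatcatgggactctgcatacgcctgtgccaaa
Tnfrsf9: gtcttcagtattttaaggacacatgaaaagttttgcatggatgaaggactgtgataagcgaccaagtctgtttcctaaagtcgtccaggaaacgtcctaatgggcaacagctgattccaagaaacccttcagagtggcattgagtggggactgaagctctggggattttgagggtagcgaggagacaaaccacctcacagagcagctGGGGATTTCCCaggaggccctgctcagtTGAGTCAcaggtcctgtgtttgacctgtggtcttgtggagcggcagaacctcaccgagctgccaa
Tnfsf14: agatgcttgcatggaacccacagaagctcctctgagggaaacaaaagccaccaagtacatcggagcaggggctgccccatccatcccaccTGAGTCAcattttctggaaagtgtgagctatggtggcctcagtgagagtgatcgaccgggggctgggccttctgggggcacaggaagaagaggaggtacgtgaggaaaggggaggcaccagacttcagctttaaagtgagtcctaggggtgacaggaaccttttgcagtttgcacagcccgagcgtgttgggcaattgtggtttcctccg
AP-1 letters stood in the windows of 2 members: Tnfrsf9, which held TGAGTCA at positions -15 to -9 from the start, and Tnfsf14, which held it at -160 to -154. The kappaB consensus stood in windows of 2 members, Tnfrsf9, where overlapping matches ran from -43 to -33, and Tnfrsf25, whose downstream window held it at -28 to -19 and at 37 to 46. Of all 32851 RefSeq windows of this length, 7.81% held the AP-1 letters and 8.46% the kappaB consensus. The NFAT core GGAAA was in all 10 windows of the members and in 61.3% of all windows, and it overlaps the kappaB match in Tnfrsf9. The Tnfrsf4 window, from the member that rose, held neither AP-1 letters nor the kappaB consensus, and AP-1 letters stood in a gene that fell (Tnfsf14) and in one with a probe set that rose (Tnfrsf9). A match is a description of letters, not a shown binding site.

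The binding partners of the members were read on the same arrays, although some are made mainly by cells other than T cells, such as antigen-presenting cells. Tnfsf15, which encodes TL1A, the ligand of DR3, had no probe set annotated to it alone and was not read. Ctla4, the inhibitory receptor that competes with CD28 for CD80 and CD86, read 4345 on HFD 1 and 4685 on HFD 2, against 9035 on ND. Both HFD arrays stood at about the same level, far below ND (log2 -0.999 ± 0.10 SE, adjusted p = 5.1e-06). Cd80 (91.5 and 115 in HFD, against 157 in ND) and Cd86 (197 and 172 in HFD, against 239 in ND) did not pass the test (adjusted p = 0.155 and 0.223). The Cd28 difference was -0.11 on the same log2 scale, and the contrast between Cd28 and Ctla4 was not tested.

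Of the partners of Tnfrsf14, the inhibitory receptor Btla read 8342 on HFD 1 and 8277 on HFD 2, against 8453 on ND, and did not pass the test (log2 -0.02 ± 0.09 SE, adjusted p = 0.835). Its sign turned with arrays centred (log2 0.04). Cd160, an HVEM-binding receptor of T and NK cells, fell to 362 on HFD 1 and 293 on HFD 2, against 1679 on ND (log2 -2.30 ± 0.17 SE, adjusted p = 3.6e-07). Its other probe sets past the filter fell less (log2 -1.47 and -1.50). The NK cell markers past the filter went different ways. Klrd1 fell (1504 and 1489 in HFD, against 2238.5 in ND), Gzma rose (435 and 420 in HFD, against 222 in ND) and Prf1 was not called (log2 -0.11). The part of NK cells in the Cd160 difference was not tested. Lta, which encodes lymphotoxin alpha, rose, at 1536 on HFD 1 and 1621 on HFD 2, against 657 on ND (2.37-fold, log2 1.24 ± 0.13 SE, adjusted p = 1.1e-05). Ltb, its membrane-bound partner chain, fell, at 18385 on HFD 1 and 18826 on HFD 2, against 24407 on ND (log2 -0.39 ± 0.07 SE, adjusted p = 0.00062; 0.0729 without a variance trend). The lymphotoxin chains thus went to opposite sides of ND. Their receptor Ltbr, a stromal and myeloid gene, lay under the filter at 10.2 on HFD 1 and 58.0 on HFD 2, against 98.7 on ND.

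Cd40, the receptor of the Cd40lg product on B cells and dendritic cells, rose, at 271 on HFD 1 and 331 on HFD 2, against 52.4 on ND (log2 2.18 ± 0.25 SE, adjusted p = 1.9e-05), and its other probe sets rose too (log2 1.89 and 1.79). The ND level lay under the filter, so the gene passed it through the HFD arrays, and the size of the difference depends on the offset (log2 1.59 with the median intensity as offset and 2.495 with an offset of 1). Of the 4 B cell markers tested, Ms4a1 (1612 and 1837 in HFD, against 56.8 in ND) and Fcer2a (524 and 644 in HFD, against 31.6 in ND) also rose, and Cd79b and Blnk did not. Ms4a1 and Fcer2a, too, lay under the filter on ND and passed it through the HFD arrays. Of the 6 macrophage and the 6 dendritic cell markers past the filter, 5 of each fell. The part of these cells in the Cd40 difference was not tested. Tnfsf4, the ligand of OX40, read 108 on HFD 1 and 170 on HFD 2, against 85.9 on ND (adjusted p = 0.164), and Tnfsf9, the ligand of 4-1BB, read 316 on HFD 1 and 251 on HFD 2, against 304 on ND (adjusted p = 0.708). Neither of these ligands passed the test, and the sign of Tnfsf9 turned under quantile normalization (log2 0.06). Cd70 (71.9 and 59.5 in HFD, against 73.6 in ND), the CD30 gene Tnfrsf8 (29.8 and 30.1 in HFD, against 45.6 in ND), the RANK gene Tnfrsf11a (43.5 and 34.6 in HFD, against 35.2 in ND) and its decoy counterpart Tnfrsf11b (0.912 and 20.6 in HFD, against 3.44 in ND) all lay under the filter.

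The remaining genes of the pathway were taken as 5 lists. Of 11 other TNF receptors past the filter, 4 rose and 3 fell, beside 20.5% called higher and 29.2% called lower among all genes. The median log2 difference was 0.22, against -0.15 over all genes. The risers were Cd40, the BAFF receptor gene Tnfrsf13c (344 and 410 in HFD, against 110 in ND), Tnfrsf19 (288 and 292 in HFD, against 33.4 in ND) and Tnfrsf22 (129 and 133 in HFD, against 64.3 in ND). Of these, Cd40, Tnfrsf19 and Tnfrsf22 lay under the filter on ND and passed it through the HFD arrays, and the count of risers was 1 with the 75th percentile as the filter. The log2 difference of Tnfrsf19 was 2.59, or 1.78 with the median intensity as offset and 3.08 with an offset of 1. Tnfrsf13c is a B cell gene, and 2 of the 4 B cell markers tested rose as well. The part of B cells in its difference was not tested. The TACI gene Tnfrsf13b of the same list fell, at 923 on HFD 1 and 974 on HFD 2, against 1546 on ND (log2 -0.70 ± 0.13 SE, adjusted p = 0.00098). The Tnfrsf22 call was lost with no filter (adjusted p = 0.147) and with probe sets averaged (log2 0.33, adjusted p = 0.387). Relt fell, at 185 on HFD 1 and 208 on HFD 2, against 383 on ND. Tnfrsf18, which encodes GITR, a receptor abundant on regulatory T cells, read 7237 on HFD 1 and 8058 on HFD 2, against 6536 on ND (log2 0.22 ± 0.10 SE, adjusted p = 0.0735). It was called higher with arrays centred (adjusted p = 0.0293) and with the 75th percentile as the filter (adjusted p = 0.0475).

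Of 8 other TNF ligands, 2 rose and 4 fell, with a median of -0.25, where 20.5% of all genes rose and 29.2% fell. The 4 lower calls became 2 with no variance trend and 2 at an adjusted p under 0.01. Beside Lta, the inflammatory cytokine gene Tnf rose, at 1387 on HFD 1 and 1523 on HFD 2, against 904 on ND (log2 0.67 ± 0.13 SE, adjusted p = 0.0012). Tnfsf10, which encodes TRAIL, fell, at 701 on HFD 1 and 649 on HFD 2, against 1230 on ND. Fasl, the death ligand of cytotoxic and helper cells, fell by 0.44 on the log2 scale, a call lost with no variance trend (adjusted p = 0.0561). Tnfsf13b, the BAFF gene of myeloid cells, fell by 0.87, a call lost with no filter (adjusted p = 0.0915). Of the 6 macrophage and the 6 dendritic cell markers past the filter, 5 of each fell, as given above. The part of these cells in the Tnfsf13b difference was not tested.

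Of 13 genes past the filter in the CD28 and B7 family list, 7 fell and 0 rose by limma, with a median of -0.54. At an unadjusted limma p under 0.05, 7 fell and 1 rose. Among all genes, 29.2% were called lower and 20.5% higher. The list also holds Cd160, Cd226 and Cd96, receptors outside the CD28 and B7 families, and each of these was among the genes that fell. Cd274, which encodes the PD-1 ligand PD-L1, did not pass the test (log2 0.29, adjusted p = 0.0669) but did so after quantile normalization, after centring and with the 75th percentile as the filter (adjusted p = 0.0373, 0.0230 and 0.0360). Icos, the CD28 relative that supports follicular helper cells, fell, at 7051 on HFD 1 and 6539 on HFD 2, against 9941 on ND (log2 -0.55 ± 0.09 SE, adjusted p = 0.00038). The inhibitory receptor gene Pdcd1 fell by 0.63 on the log2 scale and Cd96 by 0.97. Its activating relative Cd226 read 101 on HFD 1 and 205 on HFD 2, against 324 on ND, a log2 difference of -1.07 that was -0.62 without HFD 1 and -1.52 without HFD 2. Cd226 missed the threshold when unfiltered (adjusted p = 0.154) and when no trend was fitted to the variance (adjusted p = 0.0941). The genes that fell included inhibitory receptors (Ctla4, Pdcd1, Cd160 and Cd96) as well as activating ones (Icos and Cd226).

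Of 20 TRAF and survival adaptor genes, 4 rose and 7 fell, close to the 20.5% higher and 29.2% lower among all genes, with a median of -0.19. The 7 lower calls became 4 with no variance trend. The NF-kappaB subunit gene Rel rose, at 833 on HFD 1 and 866 on HFD 2, against 422 on ND (log2 0.98 ± 0.15 SE, adjusted p = 0.00017). The survival gene Bcl2l1, which encodes BCL-XL, rose, at 1280 on HFD 1 and 1250 on HFD 2, against 708 on ND (log2 0.82 ± 0.14 SE, adjusted p = 0.00031). Traf4 rose as well (log2 1.55), and so did Nfkb2 (log2 0.95 on its brightest probe set, -0.14 on the other and 0.40 with both averaged). The NF-kappaB brake Tnfaip3, which encodes A20, fell, at 6935 on HFD 1 and 6024 on HFD 2, against 12907 on ND (log2 -0.996 ± 0.10 SE, adjusted p = 6.1e-06). Traf5, an adaptor of CD27 and OX40, fell by 0.75, and the ubiquitin ligase gene Birc2 by 0.77.

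Of 19 genes of CD28 and T cell receptor proximal signalling, 10 fell and 0 rose by limma (at an unadjusted p under 0.05, 10 fell and 1 rose), with a median of -0.36, beside 29.2% lower and 20.5% higher among all genes. The 10 lower calls became 6 with no variance trend, and with arrays centred Pik3cd was called higher (log2 0.26, adjusted p = 0.0437). That call rests on the brightest probe set of Pik3cd (log2 0.20 uncentred), its others past the filter lying below ND (log2 -0.06, -0.38, -0.42 and -0.22, uncentred). Pik3r1, the regulatory subunit of the kinase that docks on CD28, fell, at 1337 on HFD 1 and 1030 on HFD 2, against 2343 on ND (log2 -0.99 ± 0.16 SE, adjusted p = 0.00023), and its 3 other probe sets fell alike (log2 -0.94, -0.95 and -0.96). Pdk1, whose mouse symbol stands for a kinase of pyruvate dehydrogenase and not for the CD28 pathway kinase, fell by 0.92, and without it 9 of 18 genes of the list fell. Prkcq, the protein kinase C isoform that CD28 recruits to the synapse, fell by 0.61, Plcg1 by 0.84, Malt1 by 0.52 (0.82 with probe sets averaged) and the CD28-binding scaffold gene Flna by 0.76. The summed intensity of the T cell markers was also lower in HFD, as given above, and its part in these differences was not tested.

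**Figure D4:**
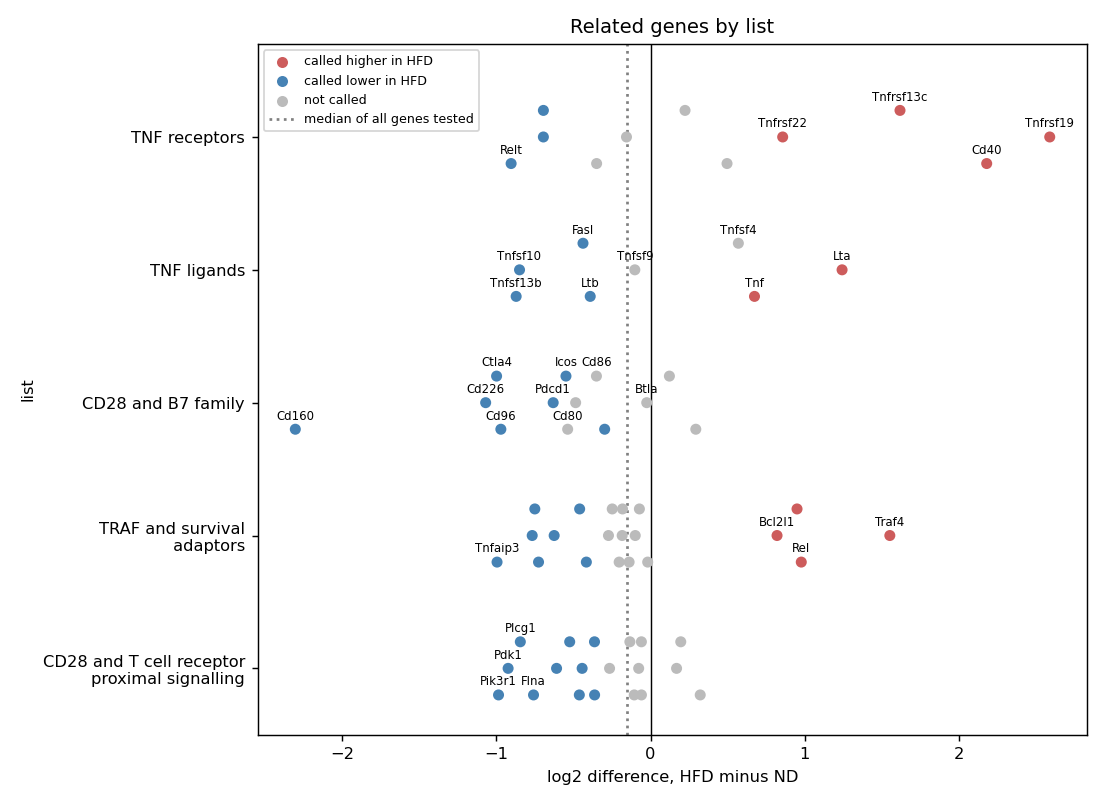
Log2 difference of HFD minus ND (horizontal axis) for the genes of the 5 lists past the filter, in rows, red where called higher in HFD, blue where called lower and grey where not called, with a dotted line at the median of all genes tested. No gene of the CD28 and B7 family list or of proximal signalling is red. Cd160, in the CD28 and B7 family list but outside both families, lies at -2.30. Of the 4 TNF receptors in red, 3 lie under the filter on the ND array.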

How the data were processed

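Labelled RNA from 3 samples was hybridised to Affymetrix mouse arrays. The deposited values are linear intensity per probe set, made with GCOS, Affymetrix's array software, per the submitters' processing notes. The sources used here do not state its algorithm, background correction or version. Each array's mean after trimming 2% at each end was 500.0 in the deposited intensity values.

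Of 45101 probe sets, 64 controls were removed. Symbols came from the platform annotation (34945 probe sets with 1 symbol, 932 with several, 9160 with none), matched through Entrez identifiers to RefSeq GRCm38.p6 (34741 matched). The scale was log2(intensity + 17.7), with the 25th percentile of all values as the offset. limma 3.58.1 in R 4.3.3 (lmFit, eBayes with a trend, two-sided) was fitted across all 10341 genes, with Benjamini-Hochberg adjustment. The spread came from the HFD arrays (1 residual degree of freedom, 11.7 prior ones), the lone ND array being assumed to vary alike. Precision is limited by the number of arrays.

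The members and lists were chosen with earlier results of these data known. Genes named are all members, their binding partners that had a probe set of their own, and up to 4 further called genes per list. The latter had the largest smaller difference over both HFD arrays. Nfkb2, Traf5, Birc2, Prkcq, Malt1, Tnfrsf18, Tnfrsf13b, Cd274, Pik3cd, the cell type markers and the histocompatibility genes fall outside this rule. They were chosen after their values were seen. Alternatives covered scaling, offset, filter, probe set merging, variance model, threshold and leaving out each HFD array. Python 3.11.15, pandas 2.3.3, numpy 2.4.6 and matplotlib 3.10.9 handled tables and figures.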

Additional observations from a re-analysis of the deposited data

How the results depend on the processing

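Of 96 alternative tests of the 8 members, 83 kept the direction and the side of the threshold, 7 lost a call, 6 gained one and 0 reversed. The alternatives of filter, variance model, threshold and single probe sets left each gene's log2 value unchanged. A direction could therefore not turn there, here or for the other genes below. Leaving out HFD 1, which gave no test and is not among the 96, turned the sign of Tnfrsf9 (log2 -0.03). The calls of Tnfrsf4, Tnfrsf25, Cd27 and Tnfsf14 held under all 12 tested alternatives each, with log2 differences of 0.84 to 1.05, -0.71 to -0.64, -0.60 to -0.48 and -0.87 to -0.74. Tnfsf8 was the member whose call was lost. The number of members called higher was 2 with arrays centred, with probe sets averaged and with the 75th percentile as the filter, against 1, the gain being Tnfrsf9. Adjusted p-values were far smaller with arrays centred and with the stricter filter: for Tnfrsf4, limma gave 7.6e-18 and 1.0e-20, against 3.0e-06. Calls gained under either setting, for members or other genes, rest in part on a variance fit that gave smaller p-values. The number at least 2-fold higher on each HFD array, 0, ranged from 0 to 1 when an HFD array was left out, the 1 being Tnfrsf4 without HFD 1. With a single HFD array no residual is left, so those settings gave values without a test. The same alternatives were run for 43 other genes, those named from the 5 lists and Ms4a1, Fcer2a, Cd3d, Cd4, Cd8a, Cd79b and Blnk. Cd274, Pik3cd, Tnfrsf13b, the other markers and the histocompatibility genes were left out. Of 500 alternative tests of the 43 genes, 475 kept direction and side. In 3 the sign reversed, all of genes not called: Tnfsf9 (0.0595) and Blnk (0.0308) under quantile normalization and Btla with arrays centred (0.0419). Outside these tests, the sign also turned for Blnk without HFD 1 (0.0424) and for Tnfsf9 without HFD 2 (0.0549). Over all genes the number called lower was 3015, against 1922 with no filter and 1974 at an adjusted p under 0.01. The median gene moved to -0.08 under quantile normalization and -0.09 with arrays centred, against -0.15. Dim probe sets have no order against background here. No paired analysis was possible because the ND group has 1 sample, with no replicate number in its label.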
